A study of Mus musculus with 12 samples.

Results

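The 69 genes described here encode the classical axon guidance ligands and their receptors, out of 22609 genes counted in ANS (adherent neural stem) cells. They were chosen by gene symbol, as the class 3 to 7 semaphorins, the plexins and neuropilins, the Eph receptors and ephrins, the Robo receptors and Slits, the netrins, and the netrin receptors Dcc and Unc5. Earlier results of these data were known when the choice was made. Of these, 35 encode ligands and 34 encode receptors. Ephrins and several semaphorins sit in the membrane and can also signal as receptors, and the division into ligands and receptors follows their usual naming.

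Growing axons and migrating neurons read attractive and repulsive cues through these proteins. Netrins attract through Dcc and repel when an Unc5 receptor takes part, Slits repel through Robo receptors, and semaphorins act through plexins, for most secreted class 3 members with a neuropilin as the binding subunit. Eph receptors are receptor tyrosine kinases that meet their ephrins on neighbouring cells, with EphA receptors preferring the lipid-anchored ephrin-A ligands and EphB receptors the transmembrane ephrin-B ligands. In the embryonic forebrain they are also known for sorting progenitors and for steering migrating interneurons.

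The cells were derived from the brain of normal mouse embryos at E14.5 and followed in culture while they were induced to become GABAergic neurons. At T0 (n = 3 libraries) they proliferated in growth medium with 20 ng/ml FGF2 and 20 ng/ml EGF. At T1 (n = 3) they had been for 2 days in medium D1, with 10 ng/ml FGF2 and 2 ng/ml EGF. At T2 (n = 4) and T3 (n = 2) they had been for 2 and 10 days in medium B, which holds 10 ng/ml FGF2 and 20 ng/ml BDNF and no EGF, on laminin. The general protocol describes somewhat different durations, and the days given here are those of the labels. The labels call the T3 cells GAD+, and no sort of the cells is described, so each value was read as a mean over the culture, in which fewer cells of a type and less RNA per cell cannot be told apart. The change of medium, the laminin and the time passed cannot be told apart either.

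The libraries held from 8910724 to 16631614 counted reads. One library stood apart: T0 replicate 3 differed from T0 replicates 1 and 2 by a chi-square of 96.4 and 99.9 per gene, against 3.17 between those 2 and at most 32.4 between any other replicates of 1 time point. It held the lowest T0 level of Dcc, Ephb2, Epha4, Robo2 and Nrp2, and counts without it are given beside the first results. CPM, the unit of level used for each gene, is the count per library brought to one size by TMM over the 12 libraries. Among markers, the summed level of 11 neuronal genes was 22.3 to 52.6 CPM at T0 and 402 to 820 CPM in the later libraries, with 4 of 6, 6 of 7 and 3 of 8 tested called higher at T1, T2 and T3 and 1, Elavl4, called lower at T1. Of all genes tested, 15.1%, 21.4% and 3.31% were called higher at these times, and 16.8% lower at T1. Dcx and Tubb3 made up most of the later sums, and Rbfox3, Snap25 and Syt1 reached at most 2.31, 3.09 and 1.30 CPM. The GABA-synthesising enzyme Gad1 gave 48.7 and 23.9 CPM in the T3 libraries, against 1.20 to 4.05 CPM at T0, whereas Gad2 and Slc32a1, which are also defining markers of GABAergic neurons, had at most 3 counts in every library. Stmn2 of the neuronal list likewise had at most 3 counts. The summed level of 8 proliferation genes was 1680 to 2738 CPM at T0, 145 to 340 CPM at T1 and T2, and 532 to 954 CPM at T3. The part of these shifts in the results that follow was not tested.

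Among the receptors tested, 14 of 26 were higher at T1 and 2 were lower, and at T2 15 of 28 were higher and 3 lower. At each of these times, taken separately, 20 of the 28 ligands tested were not called. Over all members, these counts were as follows. At T1, 19 members were higher than at T0 and 5 were lower, of 54 that passed the filter on low counts (edgeR, adjusted p under 0.05), where 15.1% and 16.8% of all genes tested were higher and lower. At T2, 20 were higher and 6 lower of 56, with a background of 21.4% and 21.8%. At T3, 10 were higher and 1 was lower of 56, against 3.31% and 1.41% of all genes. Members with few T0 counts passed the filter only through the later libraries and could hardly be called lower. Among them were the receptors Plxna4 and Epha10 at T2 and Plxna4 at T3, with 0, 2 and 0 counts at T0. The ligand Slit1, with 11, 17 and 10 counts at T0, did not pass it at T1 or T2. The counts here and the medians below carry this limit.

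The rises were mostly among receptors. At T1, 14 of the 19 higher members were receptors, and so were 15 of the 20 at T2 and 8 of the 10 at T3. In the same order, the median log2 fold change was 1.16, 1.07 and 0.31 over the receptors tested, 0.13, 0.28 and 0.12 over the ligands tested, and -0.0082, 0.0023 and -0.015 over all genes. The 3 comparisons share the T0 libraries. Across them, 28 members changed at least once, 21 upward and 7 downward, and 0 changed in both directions. The 10 members that changed at all of T1, T2 and T3 were Epha5, Epha7, Ephb1, Ephb6, Plxna1, Sema6b, Sema7a, Unc5a and Unc5d, which rose, and Efna1, which fell.

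Without T0 replicate 3, 25 members were called higher and 14 lower at T1, where the background was 25.2% and 24.9%. At T2, 25 were higher and 12 lower (26.7% and 25.3%), and at T3, 17 were higher and 6 lower (9.94% and 8.49%). All members called with that library were also called without it. In these fits T0 is replicates 1 and 2 alone, the closest of all replicate pairs (chi-square 3.17 per gene). Calls gained there, here and below, rest on the small spread between those 2 libraries. Other libraries mattered at T1, where the calls over all genes fell as well. Without T1 replicate 2, 12 members were higher and 2 lower (6.47% and 7.5% of all genes), and without T1 replicate 1, 13 and 2 (6.68% and 7.84%). Without T0 replicate 1 or T0 replicate 2, 17 or 16 were higher (11.2% or 11.0%) and 3 were lower in each (14.4% or 14.0%). The T3 calls rest on few libraries: without T0 replicate 1, T0 replicate 2, T3 replicate 1 or T3 replicate 4 the count was 0 in both directions (edgeR), with 14 to 16 members higher and 3 to 6 lower at an unadjusted p under 0.05. The lowest adjusted p of a member in these 4 fits was between 0.0648 and 0.136, and over all genes 0 to 14 were called higher and 0 to 2 lower. The share of all genes at an unadjusted p under 0.05 is not given here, so the counts at that threshold have no background beside them. With DESeq2 on all T0 and T3 libraries, 16 were higher and 4 lower of 61 tested, against 7.94% and 6.88% of all genes.

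**Figure D1:**
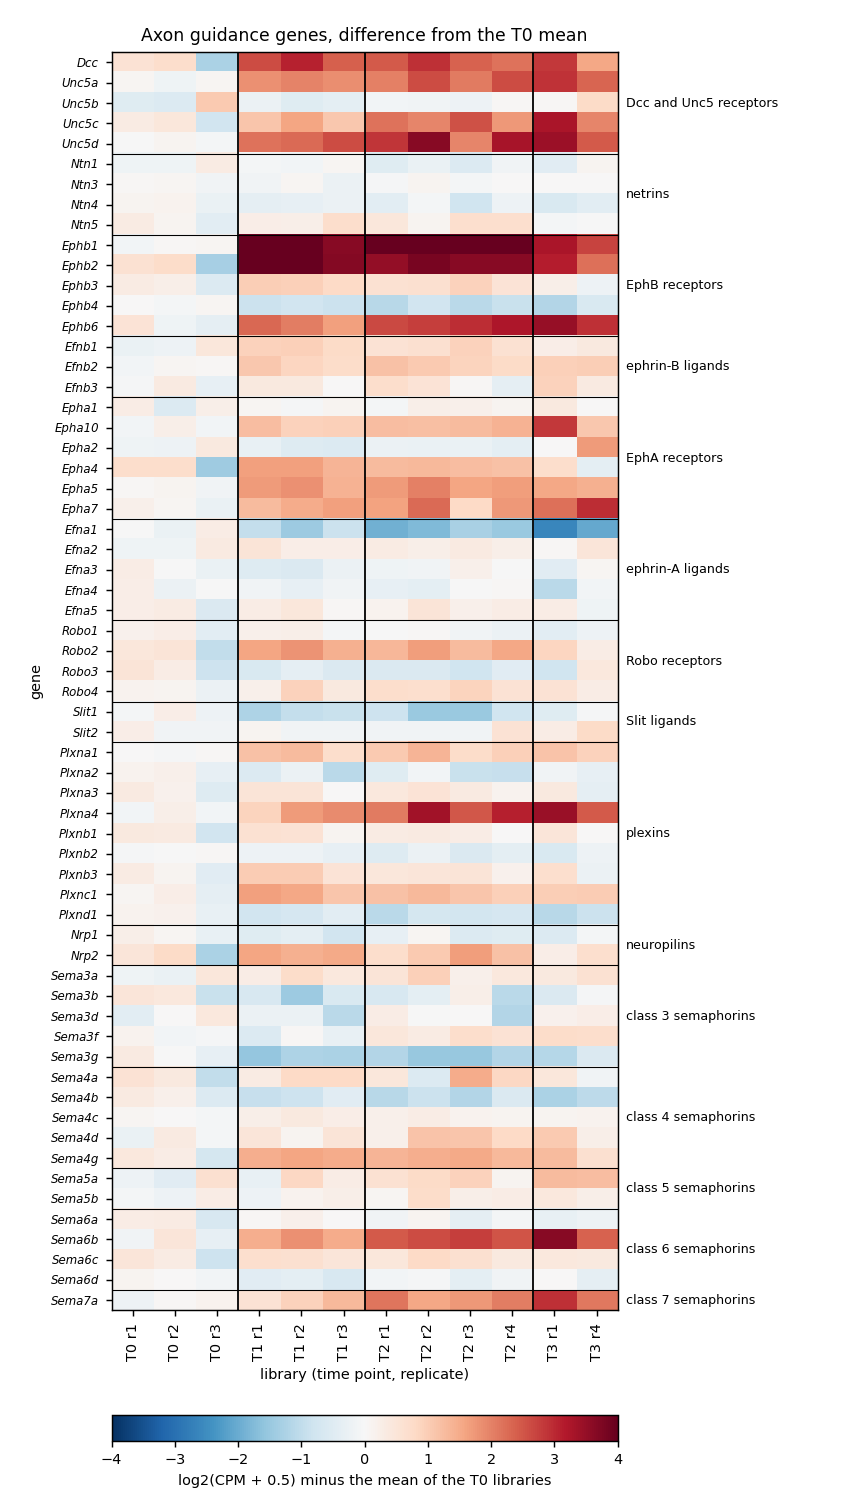
Difference of log2(CPM + 0.5) from the T0 mean for the members with more than 3 counts in at least 1 library, one column per library and one row per gene, grouped by family, with red for higher and blue for lower. The receptor families at the top carry the darkest red from T1 on, the netrins stay pale, and T0 replicate 3 is bluer than the other T0 libraries for Dcc, Ephb2, Epha4, Robo2 and Nrp2.

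Levels can be compared between genes only per length, for which the authors' FPKM table was used (fragments scaled to transcript length and to library size). Its scale against CPM differed by library, from 0.842 to 1.14, so FPKM of different time points are set side by side as levels only, and changes were tested on counts. Over the 12 libraries the plexin Plxnb2, a semaphorin receptor, had the highest mean of the 69 genes with 80.0 FPKM, followed by the Slit receptor Robo2 with 70.0 and the ligands Ntn1 with 63.4 and Ntn4 with 46.0 FPKM. From T0 to T3 the number of receptors with a mean above 10 FPKM was 9, 15, 14 and 10, and that of ligands 7, 8, 9 and 7. Several receptors that changed most in fold were scarce throughout, among them Unc5d with 0.0968 FPKM at T0 and 0.769 at T2, and Epha7 with 0.135 and 0.480 FPKM. Ephb1 and Ephb2 were different in this respect, going from 0.601 to 21.0 FPKM and from 2.46 to 23.0 FPKM, which brought them to the level of Ephb3, at 21.3 FPKM.

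**Figure D2:**
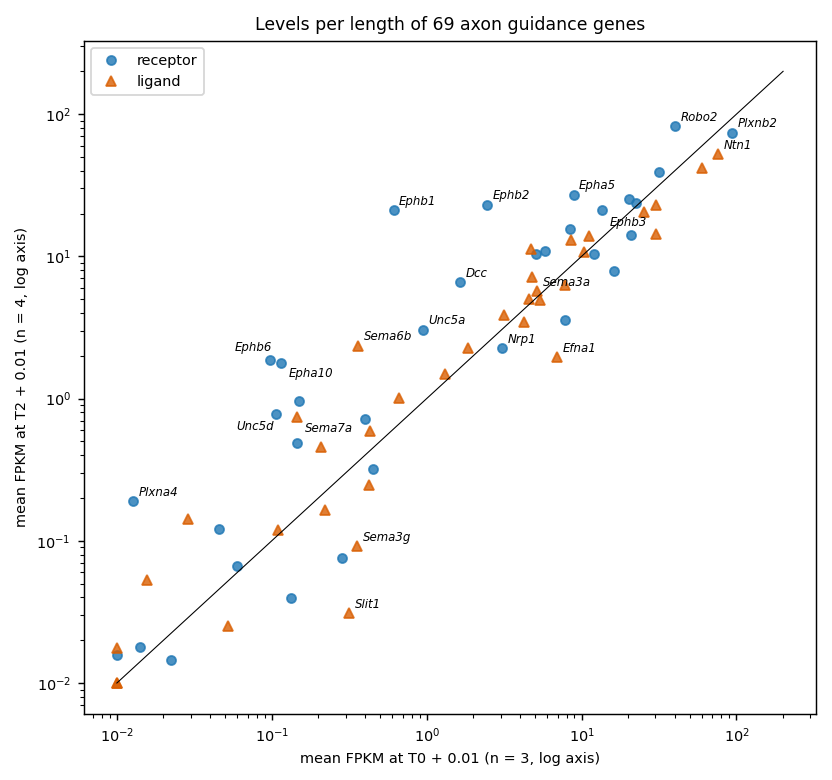
Mean FPKM of each of the 69 genes at T0 (n = 3, x axis) and at T2 (n = 4, y axis), both with 0.01 added and on log axes, with receptors as circles, ligands as triangles and the line of equal level. Ephb1 and Ephb2 lie far above the line at a mean of more than 20 FPKM at T2, Ntn1 and Plxnb2 lie just under it at the upper end, and Slit1 lies under it at the lower end.

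All but 1 of the netrin receptors rose. Dcc, which mediates attraction to netrin, gave 30.9, 34.5 and 8.25 CPM at T0, 130, 180 and 112 at T1, 117, 162, 108 and 95.3 at T2, and 150 and 62.0 at T3. Every later library was above every T0 library. The log2 fold change was 2.51 ± 0.50 (SE, adjusted p = 0.0107) at T1 and 2.31 ± 0.44 (adjusted p = 0.00393) at T2. At T3 it was 2.13 ± 0.65 and did not pass (adjusted p = 0.109), while without T0 replicate 3 it was 1.72 ± 0.42 and passed (adjusted p = 0.0491).

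Unc5 receptors bind netrins and are needed for repulsion. Unc5a gave 1.50, 1.19 and 1.48 CPM at T0, 6.12, 6.87 and 6.28 at T1, 7.17, 11.1, 7.37 and 11.0 at T2, and 13.4 and 9.04 at T3. No T0 library reached the later ones, and the log2 fold changes were 2.20 ± 0.23, 2.73 ± 0.27 and 3.02 ± 0.33 (adjusted p = 0.00103, 0.000165 and 0.0184). An exon of Unc5a overlaps one of Hk3 on the other strand, and as the kit does not mark strand, reads of the 2 genes there cannot be told apart. Unc5d gave 0.525, 0.628 and 0.494 CPM at T0 and 4.22, 4.48 and 5.91 at T1. Its T2 libraries spread widely, with 7.07, 12.5, 3.55 and 9.77 CPM, and the T3 libraries gave 10.6 and 5.27. All of these were above T0, with log2 fold changes of 3.13 ± 0.29, 3.90 ± 0.49 and 3.85 ± 0.45 (adjusted p = 0.000691, 0.000504 and 0.0203).

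Unc5c, the third of the risen Unc5 genes, gave 1.95, 2.16 and 0.635 CPM at T0, 3.71, 5.30 and 3.66 at T1, 8.22, 7.04, 10.9 and 5.96 at T2, and 18.4 and 7.10 at T3. The T1 and T2 libraries did not overlap. The rise was 1.41 ± 0.44 at T1 (adjusted p = 0.0485) and 2.35 ± 0.41 at T2 (adjusted p = 0.00252), both on the log2 scale. The T1 call was lost with no filter, with the replicate block and on leaving out any one library but T0 replicate 3 (adjusted p up to 0.166). At T3 the value of 3.02 ± 0.63 missed the threshold (adjusted p = 0.0555). The step from T1 to T2 was 0.93 ± 0.24 and did not pass (adjusted p = 0.145). Unc5b, tested in all 3 comparisons with T0, passed in none.

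Their ligands were abundant from the start. Ntn1, the prototype of the family and the member that made up 55.3% of the netrin FPKM, gave 502, 505 and 715 CPM at T0, 531, 529 and 591 at T1, 402, 466, 383 and 515 at T2, and 409 and 613 at T3. The groups overlapped T0 at each time, and the log2 fold changes of -0.07 ± 0.17, -0.36 ± 0.17 and -0.15 ± 0.27 did not pass (adjusted p = 0.786, 0.110 and 0.749). Without T0 replicate 3 the T1 and T3 values were 0.13 and 0.037. Of the 4 netrin genes, 0 were called at any time point in either direction, though Ntn4 was called lower at all 3 without T0 replicate 3.

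**Figure D3:**
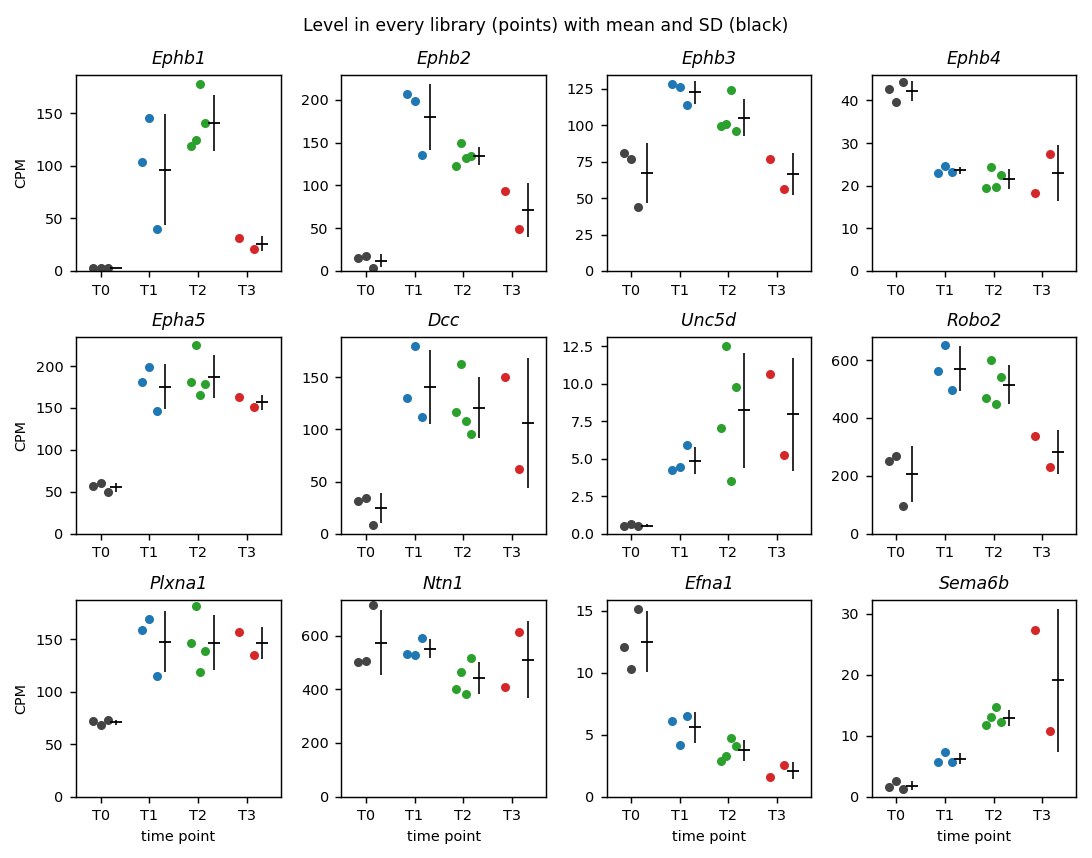
CPM in each library (points) at T0, T1, T2 and T3 for 12 members, with the mean and SD of each time point in black, each panel on a linear axis from 0. Ephb1 is at 2.55 to 2.96 CPM in the T0 libraries and at 40.1 to 178 CPM at T1 and T2 before a fall to 31.4 and 20.8 at T3, the later levels of Epha5 and Plxna1 are all above T0, Ntn1 overlaps T0 at each later time point, and Efna1 and Ephb4 are below T0 throughout.

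Of the 5 EphB receptors, 4 were higher and 1 lower at both T1 and T2. Ephb1 gave 2.55, 2.86 and 2.96 CPM at T0, 104, 146 and 40.1 at T1, 119, 125, 178 and 141 at T2, and 31.4 and 20.8 at T3. The lowest of the T1 and T2 libraries, T1 replicate 3, was still more than 10 times the highest T0 library, and both T3 libraries lay between T0 and all others. The log2 fold changes were 5.10 ± 0.51 at T1 (adjusted p = 0.000905), 5.67 ± 0.20 at T2 (adjusted p = 7.62e-06) and 3.24 ± 0.28 at T3 (adjusted p = 0.0136). Ephb1 lies on chromosome 9, from 101824458 to 102257023 on the minus strand of NCBIM37, and an exon of Gm17708 overlaps it on the other strand.

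Ephb2, which like Ephb1 signals to ephrin-B ligands, gave 15.7, 17.2 and 3.81 CPM at T0, 206, 198 and 136 at T1, 123, 149, 132 and 134 at T2, and 93.7 and 49.3 at T3. It was above T0 in all later libraries, and all T2 libraries were above both of T3. The log2 fold changes were 3.88 ± 0.53 and 3.48 ± 0.44 at T1 and T2 (adjusted p = 0.00257 and 0.000533). At T3 it was 2.56 ± 0.63 (adjusted p = 0.0742), and 2.14 ± 0.33 without T0 replicate 3, which passed (adjusted p = 0.0196).

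Ephb3 and Ephb4 were the most abundant EphB receptors at T0. Ephb3 gave 81.2, 76.5 and 43.9 CPM at T0, 128, 126 and 114 at T1, 99.8, 101, 124 and 95.9 at T2, and 76.6 and 56.3 at T3. It rose by 0.86 ± 0.23 at T1 and 0.66 ± 0.21 at T2 on the log2 scale (adjusted p = 0.0283 and 0.0333), and at T3 it overlapped T0. Its T1 call was lost on leaving out any one T1 library (adjusted p up to 0.0987). Its T2 call was lost on leaving out any one T2 library and with the replicate block (adjusted p up to 0.103). Ephb4, known best from the vessel wall, where it pairs with ephrin-B2, was the 1 that fell. It gave 42.8, 39.6 and 44.4 CPM at T0, between 23.0 and 24.6 at T1, between 19.5 and 24.4 at T2, and 18.3 and 27.6 at T3. No later library reached T0, and the change was -0.84 ± 0.12 at T1 and -0.96 ± 0.13 at T2 (adjusted p = 0.00292 and 0.000636), while the -0.87 ± 0.23 of T3 missed the threshold (adjusted p = 0.0848). An exon of Zan overlaps Ephb4 on the other strand.

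Ephb6 and Epha10 are known as Eph receptors that lack kinase activity. The activation loop of an active kinase opens with the residues aspartate, phenylalanine and glycine, and the codons at that position were read from the coding transcripts of GENCODE on NCBIM37 and found at the same place in the genome. Of the 14 Eph receptors, 12 carry codons for those residues and 2 do not, which are Ephb6 and Epha10. The stretches of 5 members that rose are shown because they set these 2 apart from catalytically active relatives. They are written in the sense of the gene, with the 3 codons in capitals and on either side the codons that flank them.
Ephb1 (chr9:101866313-101866339, minus strand, exon 12): gtgtgcaaagtttctGACTTTGGTctc
Ephb2 (chr4:136215529-136215555, minus strand, exon 12): gtgtgtaaggtgtctGATTTTGGGctc
Epha5 (chr5:84513776-84513802, minus strand, exon 14): gtgtgcaaggtgtctGACTTTGGActt
Ephb6 (chr6:41568708-41568734, plus strand, exon 14): gtgtgtaaggtggcaCGTCTCGGCcac
Epha10 (chr4:124591307-124591333, plus strand, exon 11 of a transcript whose start is incomplete): ctctgtaagatctctGGCTTTGGGcgt

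Both receptors without those codons rose. Ephb6 had 6, 1 and 0 counts at T0, and gave 2.67, 2.17 and 1.52 CPM at T1, 3.54, 3.89, 4.55 and 5.59 at T2, and 6.78 and 4.41 at T3, all above T0. The log2 fold changes were 3.57 ± 0.77, 4.65 ± 0.64 and 4.99 ± 0.91 (adjusted p = 0.0142, 0.000788 and 0.0431). Without T1 replicate 1 or T1 replicate 2 the T1 call of Ephb6 was lost. Epha10 had 0, 2 and 0 counts at T0, 9, 7 and 9 at T1, 8, 8, 9 and 15 at T2, and 40 and 6 at T3. At T2 these came to 40 counts against 2 at T0, a ratio of 17.2 per normalised read with an exact 95% interval of 4.47 to 147, which covers counting error only, and it passed at T2 (adjusted p = 0.00339). It did not pass the filter at T1 or T3, where its counts were also above all of T0. At T2 it was not called without T2 replicate 4 or with libraries numbered 1 and 2 alone. An exon of 1700125G02Rik overlaps Epha10 on the other strand, and the FPKM table lists Epha10 at 0.0917 in T0 replicate 1, where 0 reads were counted on it.

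Among the EphA receptors, Epha5 and Epha7 rose at every time point. Epha5, an ephrin-A receptor that led its family with 58.2% of the EphA FPKM, gave 56.7, 60.4 and 49.7 CPM at T0, 181, 199 and 147 at T1, 181, 226, 166 and 178 at T2, and 163 and 151 at T3. Every later library was above T0, neither later step passed, and the log2 fold changes against T0 were 1.65 ± 0.15, 1.77 ± 0.14 and 1.51 ± 0.15 (adjusted p = 0.000657, 8.22e-05 and 0.0164). Epha7, known for repulsion of cortical axons, gave 0.975, 0.837 and 0.564 CPM at T0, 2.59, 3.06 and 3.54 at T1, 3.44, 5.65, 1.73 and 3.75 at T2, and 5.36 and 9.36 at T3. Its groups did not overlap T0, with log2 fold changes of 1.94 ± 0.31, 2.21 ± 0.44 and 3.21 ± 0.44 (adjusted p = 0.00501, 0.00460 and 0.0242).

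The call of Epha4, which binds ephrins of both classes, depended on 1 library and on the method. It gave 102, 102 and 22.6 CPM at T0, 193, 193 and 160 at T1, 149, 154, 145 and 141 at T2, and 101 and 47.5 at T3. All T1 and T2 libraries were above all T0 libraries, but the log2 fold changes of 1.27 ± 0.50 and 0.98 ± 0.43 did not pass (adjusted p = 0.0945 and 0.0955). Without T0 replicate 3 they were 0.84 ± 0.10 and 0.55 ± 0.078, and both passed (adjusted p = 0.000217 and 0.000298). With all libraries DESeq2 called it higher at both times (adjusted p = 0.0261 and 0.0418), and one fit of all libraries did so at T1 (adjusted p = 0.0306).

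Of the ephrin-A ligands 1 of 5 changed. Efna1 was the sole ligand that fell at all 3 time points, from 12.1, 10.3 and 15.2 CPM at T0 to 6.12, 4.18 and 6.52 at T1, 2.87, 3.24, 4.73 and 4.05 at T2, and 1.59 and 2.58 at T3. The groups did not overlap T0, and the changes were -1.16 ± 0.25, -1.73 ± 0.23 and -2.57 ± 0.37 on the log2 scale (adjusted p = 0.0146, 0.000728 and 0.0278). The T1 call of Efna1 was lost without T1 replicate 1 or T1 replicate 2. The other 4 ephrin-A genes were not called. Efna4, the leading one with 29.6% of the family's FPKM, gave 18.6, 13.1 and 15.2 CPM at T0, 14.0, 12.1 and 13.8 at T1, 12.1, 11.8, 15.4 and 16.0 at T2, and 7.04 and 14.4 at T3, overlapping T0 each time. An exon of 4731419I09Rik overlaps Efna4 on the other strand.

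Of the 3 ephrin-B ligands, 2 rose at T1 and T2. Efnb1 gave 16.0, 16.7 and 26.6 CPM at T0, 36.8, 37.4 and 32.9 at T1, 28.9, 30.4, 36.9 and 29.5 at T2, and 23.2 and 25.3 at T3, where it was back within the T0 range. It rose by 0.85 ± 0.22 at T1 and 0.68 ± 0.20 at T2 on the log2 scale (adjusted p = 0.0266 for both). Both calls were lost on leaving out any one library but T0 replicate 3, and that of T1 also with the replicate block (adjusted p up to 0.0962 at T1 and 0.0834 at T2). Efnb2 gave 5.63, 6.35 and 6.21 CPM at T0, 13.4, 11.4 and 10.3 at T1, 14.1, 13.2, 11.7 and 10.6 at T2, and 12.2 and 12.5 at T3. It stayed above T0 throughout, and passed at T1 and T2 with 0.94 ± 0.18 and 1.04 ± 0.17 (adjusted p = 0.0104 and 0.00200) but not at T3 with 1.04 ± 0.24 (adjusted p = 0.0634). The T1 call of Efnb2 was lost without T1 replicate 1. Efnb3 was not called.

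The mix of EphB receptors was read within each library, where the scale of FPKM cancels. Ephb3 and Ephb4 together carried the T0 mix, with means of 54.6% and 32.9% of the summed EphB FPKM. Ephb1 held 1.92%, 2.13% and 3.61% at T0, 21.0%, 25.6% and 11.8% at T1, 27.9%, 27.5%, 32.7% and 30.3% at T2, and 11.99% and 9.69% at T3. Ephb4 held between 26.6% and 44.5% at T0 and between 3.92% and 7.33% at T1 and T2. The summed receptor FPKM was 1.09, 1.13 and 0.901 times the summed ligand FPKM at T0, 1.94, 1.90 and 1.50 times at T1, 1.76, 1.63, 1.93 and 1.60 times at T2, and 1.53 and 1.35 times at T3. All later libraries were above all T0 libraries in this ratio, which was not tested since it sums over chosen genes.

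**Figure D4:**
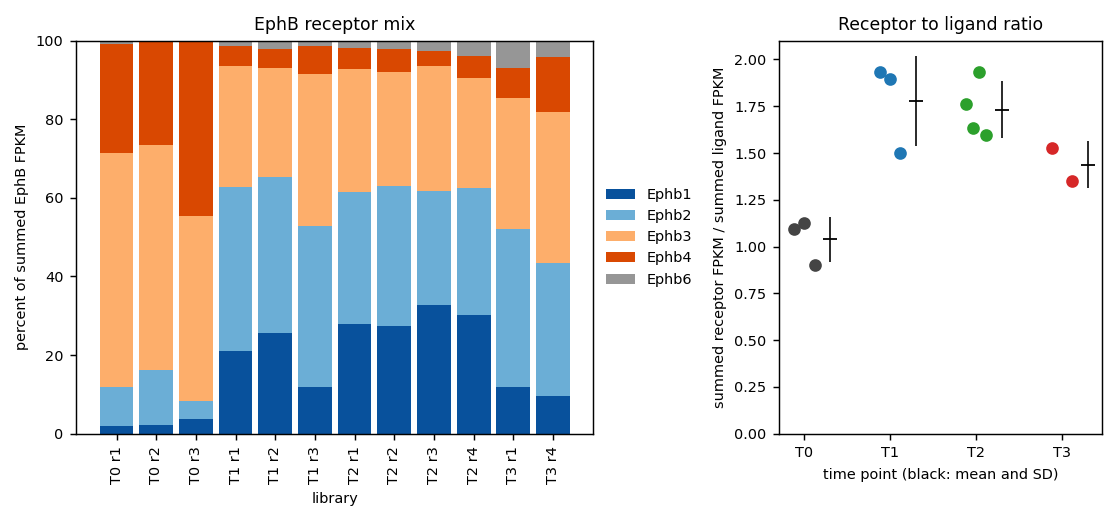
Left, share of each EphB gene in the summed EphB FPKM of each library, in percent, and right, summed FPKM of the 34 receptors divided by that of the 35 ligands in each library (points) with mean and SD in black. Ephb3 and Ephb4 fill most of the T0 bars and Ephb1 and Ephb2 most of the T1 and T2 bars, and the mean ratio at T0, T1, T2 and T3 is 1.04, 1.78, 1.73 and 1.44.

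Robo2, the Slit receptor that held 86.1% of the Robo FPKM, rose and then came down. It gave 253, 269 and 94.9 CPM at T0, 562, 651 and 498 at T1, 470, 599, 450 and 543 at T2, and 336 and 229 at T3. The T1 and T2 libraries were above all others, and T3 overlapped T0. The log2 fold change was 1.47 ± 0.37 at T1 and 1.34 ± 0.33 at T2 (adjusted p = 0.0247 and 0.0115), and 0.47 ± 0.46 at T3, which did not pass (adjusted p = 0.551). The T1 call was lost on leaving out any one T1 library (adjusted p up to 0.0913). From T2 to T3 Robo2 changed by -0.87 ± 0.18 and missed the threshold (adjusted p = 0.0586). Robo1 was not called at any time point.

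The Slit ligands had few counts. Slit1 had 11, 17 and 10 counts at T0, 1, 3 and 4 at T1, 3, 0, 0 and 5 at T2, and 6 and 8 at T3, and passed the filter at T3 alone, with -0.41 ± 0.53 (adjusted p = 0.661). With no filter it was called lower at T1 and T2, with -2.20 ± 0.54 and -2.44 ± 0.72 (edgeR adjusted p = 0.0213 and 0.0265), and DESeq2 and one fit of all libraries called it lower at both as well. Slit2 had at most 5 counts in a library and Slit3 at most 2. Thus Robo2 stood at a mean of 82.5 FPKM at T2 where the 3 Slit genes together came to a mean of 0.0638 FPKM.

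Plexins, the signalling receptors of semaphorins, moved in both directions. Plxna1 gave 71.8, 68.4 and 73.0 CPM at T0, 159, 170 and 115 at T1, 147, 182, 119 and 139 at T2, and 157 and 136 at T3. All later libraries were above T0 and overlapped one another, with log2 fold changes of 1.05 ± 0.16, 1.06 ± 0.15 and 1.06 ± 0.14 (adjusted p = 0.00416, 0.000867 and 0.0242). An exon of Gm16896 overlaps it on the other strand. Plxnc1, the receptor of Sema7a, gave 52.7, 59.2 and 38.8 CPM at T0, 154, 145 and 106 at T1, 112, 122, 108 and 97.1 at T2, and 97.3 and 100.1 at T3. All later libraries exceeded T0, and it passed at T1 and T2 with 1.42 ± 0.21 and 1.15 ± 0.16 (adjusted p = 0.00338 and 0.000841), but not at T3 with 0.99 ± 0.21 (adjusted p = 0.0580).

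Plxna4 was nearly silent at T0, with 0, 2 and 0 counts, and had 6, 17 and 25 at T1, 19, 55, 28 and 68 at T2, and 65 and 23 at T3. The ratio per normalised read was 73.3 at T2 (exact 95% interval 20.0 to 610.0, counting error only) and 86.7 at T3 (23.3 to 727), and both passed (adjusted p = 0.000638 and 0.0307). Gm13851 has an exon over it on the other strand. Plxnb3 rose at T1 alone, by 0.84 ± 0.23 on the log2 scale (adjusted p = 0.0294). That call was lost without T0 replicate 2, T1 replicate 1 or T1 replicate 2. Plxnb2, the most abundant member, gave 716, 722 and 764 CPM at T0, 634, 633 and 587 at T1, 517, 624, 489 and 558 at T2, and 478 and 633 at T3. All later libraries were below T0, and it fell by 0.41 on the log2 scale at T2 (SE 0.12, adjusted p = 0.0216) but did not pass at T1 or T3. The T2 call of Plxnb2 was lost without T2 replicate 1 or T2 replicate 3 and with the replicate block. Plxnd1 fell by 0.64 at T1 and 0.78 at T2 on the log2 scale (SE 0.16 and 0.15, adjusted p = 0.0260 and 0.00376). Its T1 call was lost with the replicate block and without T0 replicate 1, T0 replicate 2, T1 replicate 1 or T1 replicate 2.

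The neuropilins were not called. Nrp1, the leading one, gave 29.0, 25.8 and 19.9 CPM at T0, 17.5, 18.6 and 14.3 at T1, 19.5, 25.9, 16.6 and 17.3 at T2, and 16.8 and 23.0 at T3. The T1 libraries were below T0 with -0.57 ± 0.19, just short of the threshold (adjusted p = 0.0572), and the others overlapped it. Nrp2 gave 3.75, 4.75 and 0.776 CPM at T0 and between 7.70 and 8.53 at T1, with 1.40 ± 0.54 (adjusted p = 0.0874). Without T0 replicate 3, Nrp1 passed as lower at T1 and T2 and Nrp2 as higher at T1.

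**Figure D5:**
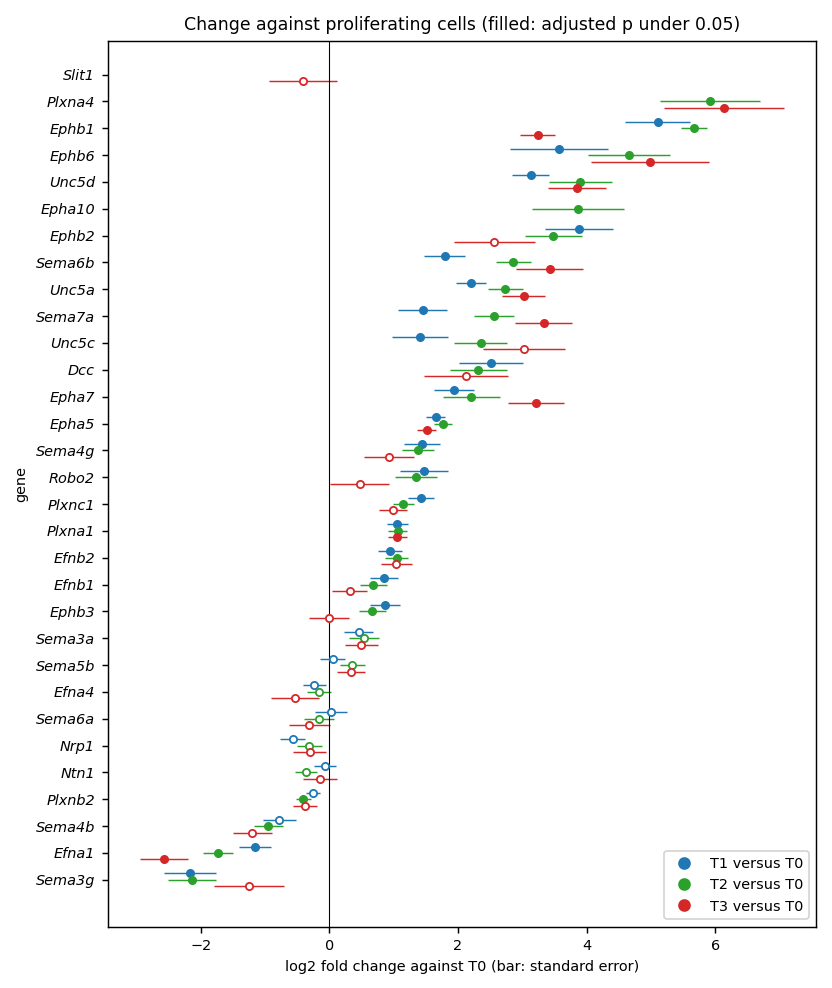
Log2 fold change against T0 at T1, T2 and T3 for 31 members, those called with a change of at least 1 on the log2 scale and the leading member of each family by FPKM, with the standard error as bar, filled where the adjusted p was under 0.05 and open where it was not. Receptors take most of the upper part, where Ephb1 goes from 5.10 and 5.67 to 3.24 while Sema6b and Sema7a go from 1.79 to 3.42 and from 1.45 to 3.33, and Sema3g and Efna1 are at the bottom, with Slit1 listed first as it was tested at T3 alone (the values of Plxna4, Ephb6 and Epha10 rest on few T0 counts).

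Of the semaphorins, 3 rose, which were Sema6b, Sema7a and Sema4g. Sema6b, a transmembrane ligand of A-type plexins, gave 1.50, 2.58 and 1.27 CPM at T0, 5.60, 7.32 and 5.73 at T1, 11.7, 13.1, 14.7 and 12.2 at T2, and 27.3 and 10.8 at T3. T0, T1 and T2 did not overlap each other, and the log2 fold changes against T0 were 1.79 ± 0.32, 2.86 ± 0.27 and 3.42 ± 0.52 (adjusted p = 0.00773, 0.000142 and 0.0305). Sema7a, the lipid-anchored member, gave 0.450, 0.628 and 0.705 CPM at T0, 1.12, 1.57 and 2.19 at T1, 4.30, 2.69, 3.09 and 3.99 at T2, and 7.79 and 4.20 at T3. It was above T0 in all later libraries, with 1.45 ± 0.38, 2.56 ± 0.31 and 3.33 ± 0.45 (adjusted p = 0.0290, 0.000444 and 0.0237). Its T1 call was lost without T0 replicate 1, T0 replicate 2, T1 replicate 2 or T1 replicate 3. Sema4g, transmembrane as well, gave 38.0, 34.7 and 17.1 CPM at T0, 77.7, 85.8 and 79.8 at T1, 74.0, 78.7, 82.6 and 70.9 at T2, and 68.8 and 44.0 at T3. It passed at T1 and T2 with 1.43 ± 0.28 and 1.37 ± 0.25 (adjusted p = 0.0104 and 0.00308), and the 0.93 ± 0.39 of T3 did not pass (adjusted p = 0.197).

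Another 3 semaphorins fell. Sema3g, a secreted member, gave 2.33, 1.68 and 1.27 CPM at T0, 0.259, 0.448 and 0.427 at T1, 0.478, 0.278, 0.273 and 0.491 at T2, and 0.502 and 0.969 at T3. It fell by 2.17 at T1 and 2.14 at T2 on the log2 scale (SE 0.40 and 0.38, adjusted p = 0.00827 and 0.00262). Sema4b gave 190.0, 171 and 100.6 CPM at T0, 78.3, 82.4 and 109 at T1, 68.5, 80.7, 65.7 and 99.0 at T2, and 61.5 and 71.2 at T3. It fell by 0.95 at T2 (SE 0.23, adjusted p = 0.0105), and Sema6d fell by 0.50 at T1 alone (SE 0.12, adjusted p = 0.0193). The Sema6d call was lost on leaving out any one T0 or T1 library but T0 replicate 3. The lowest T0 library of Sema4b was again replicate 3, just above the highest of T2.

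The class leaders Sema3a, Sema5b and Sema6a were not called. Sema3a, the repellent with 84.1% of the class 3 FPKM, gave 25.6, 23.8 and 39.2 CPM at T0, 35.3, 47.8 and 38.7 at T1, 41.5, 56.8, 33.0 and 38.3 at T2, and 38.0 and 44.5 at T3. Sema5b gave 32.3, 29.6 and 42.8 CPM at T0, 29.6, 38.1 and 41.0 at T1, 36.4, 57.6, 40.7 and 42.1 at T2, and 46.7 and 40.2 at T3. Sema6a gave 237, 243 and 124 CPM at T0, 199, 221 and 194 at T1, 174, 207, 150.0 and 182 at T2, and 156 and 166 at T3. All 3 overlapped T0 at each time. Without T0 replicate 3, Sema3a was called higher at all 3 time points and Sema6a lower at all 3.

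A further 11 members, Epha2, Epha3, Epha6, Epha8, Robo4, Sema3c, Sema3e, Sema4d, Sema4f, Slit2 and Slit3, passed the low-count filter in no comparison with T0. Of these, Epha3, Epha6, Epha8, Sema3c, Sema3e, Sema4f and Slit3 had at most 3 counts in every library, and Sema3e had 0. Another 30 members were tested and called at no time point, Nrp1, Nrp2, Epha4 and the 4 netrins among them.

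Later steps moved few members. From T1 to T2, 1 of 52 members tested was higher, Sema6b with 1.06 ± 0.15 on the log2 scale (adjusted p = 0.0232), against 0.573% of all genes, and 0 were lower, against 0.0565%. With the replicate number as a block, 2 were higher, Sema6b and Sema6d (background 1.51%), and 0 were lower (background 0.476%). That equal numbers are pairs is not stated by the labels. In fits that left out 1 library, Sema6b was not called without T1 replicate 1, T1 replicate 3 or T2 replicate 1. At an unadjusted p under 0.05, for which the share of all genes is not given here, 9 were higher and 5 lower. From T2 to T3, 1 of 54 was lower, Ephb1 with -2.43 ± 0.23 (adjusted p = 0.0117), against 0.691% of all genes, and 0 were higher, against 0.500%. At an unadjusted p under 0.05, 3 were higher and 9 lower, again without the share of all genes. Among the latter were Robo2, Ephb2, Ephb3 and Epha4, whose T3 libraries were all below those of T2. Ephb1 was not called without T2 replicate 4, and without T3 replicate 1, 8 members were called lower and 1, Epha2, higher, against 4.0% and 6.46% of all genes. With DESeq2 5 were lower and 0 higher, against 2.52% and 3.29%.

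Related genes of the same pathways were counted from lists of 23 co-receptors and related cues and 48 intracellular effectors. Of the co-receptors and cues, 9 of 18 tested were higher and 0 lower at T1, 8 of 19 were higher and 1 lower at T2, and 6 of 20 were higher and 0 lower at T3. Of the effectors, 12 of 42, 13 of 43 and 3 of 42 were higher and 3, 4 and 0 were lower. Over all genes, as given above, 15.1%, 21.4% and 3.31% were higher and 16.8%, 21.8% and 1.41% lower. In the co-receptor and cue list Nfasc, an adhesion molecule, gave 0.525, 0.349 and 0.141 CPM at T0 and 142 and 111 at T3, a log2 fold change of 8.53 ± 0.39 (adjusted p = 0.00552). Dscaml1, a homophilic adhesion molecule, gave 1.20, 0.837 and 0.0705 CPM at T0 and 33.8 and 8.93 at T3, with 4.93 ± 0.93 (adjusted p = 0.0454). Flrt1, of a family that binds Unc5 receptors, passed at T3 as well (adjusted p = 0.0465), with 1.93 and 0.753 CPM there and at most 0.0705 CPM at T0, too few reads for a fold. Among effectors called, the largest falls were those of Rras, a small GTPase on which plexins act, with -1.14 ± 0.18 at T2, Abl2, a kinase, with -0.59 ± 0.12 at T2, and Dock1, an exchange factor, with -0.51 ± 0.13 at T1 (adjusted p = 0.00144, 0.00582 and 0.0260).

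Markers of other cells were counted in the same way. The summed level of 10 oligodendrocyte lineage genes was 3289 to 3622 CPM at T0, 4289 to 4987 at T1, 4389 to 5297 at T2 and 6233 to 6373 at T3, with 1 of 7, 4 of 8 and 0 of 9 called higher. Over all genes, 15.1%, 21.4% and 3.31% were higher at T1, T2 and T3. In that list Olig1 and Olig2 made up most of the sum, also at T0. Pdgfra and Gpr17 were above T0 in all later libraries, while Sox10 and Enpp6, at most 3.38 and 1.88 CPM at T0, were below it. For 8 astrocyte genes the ranges of the summed level were 2603 to 4214, 3187 to 3831, 2887 to 3857 and 2454 to 2738 CPM, and for 7 progenitor genes 5371 to 7431, 5692 to 7117, 4963 to 5828 and 5424 to 5619 CPM. At T1, T2 and T3, 0, 1 and 0 of 7 astrocyte genes tested were lower, and 1, 2 and 0 of 6 progenitor genes. None of either list was higher. The lower share of all genes was 16.8%, 21.8% and 1.41%. All 6 microglial genes had at most 3 counts in every library, with Tyrobp and C1qa at 0, and 7 endothelial and mural genes summed to between 1.19 and 3.77 CPM. The part of the oligodendrocyte lineage in the values of semaphorins, plexins and ephrins was not tested.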

How the data were processed

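Polyadenylated RNA of 12 ANS cell libraries (TruSeq v2, HiScanSQ) was sequenced and aligned to mm9 by the authors, and the submitters' notes list CASAVA 1.8, TopHat2 2.0.6, Bowtie 0.12.7.0, HTSeq 0.6.0 and DESeq2 1.0.0. Their deposited counts per gene are raw and cover 22609 genes. The strand setting is not given in the sources used here. The 5 entries that name no gene were left out (reads on no gene 13.3% to 24.1% of uniquely aligned reads, ambiguous reads 0.681% to 0.903%). The second deposited table was taken as FPKM per gene, as the authors name that measure, but its header gives no unit and the tool behind it is not given in the sources used here. Its scale against CPM differed by library, from 0.842 to 1.14, so FPKM was used for levels and shares and for no test. One of its columns, for T3 replicate 4, has an unexplained 2 in its name.

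Each comparison was fitted on the libraries of its 2 time points in edgeR 4.0.16 (R 4.3.3) by its quasi-likelihood test, after TMM scaling and filterByExpr, with p adjusted over all genes tested by Benjamini-Hochberg and a threshold of 0.05. The standard error is the log2 fold change divided by the square root of F. The fits were tested on simulated counts. Alternatives were DESeq2 1.42.0, RLE size factors, no filter, one fit of all libraries, leaving out each library, libraries numbered 1 and 2 alone, and the replicate number as a block. Deviations from the group means of same-numbered T1 and T2 libraries correlated at 0.32, 0.47 and 0.23. Those of T1 replicate 3 and T2 replicate 4 correlated at 0.48, so the correlations do not single out equal numbers. The labels do not state a pairing, and the replicate block takes equal numbers as pairs. For same-numbered libraries of T0 and T1 the correlations were -0.004, 0.16 and 0.10, and for those of T0 and T2 -0.10, 0.023 and -0.17. Members, lists and tests were chosen with earlier results of these data known. Values in every library are given for members called with a log2 fold change of at least 1 in size and for the leading member of each family by FPKM, and Epha4, Ephb4, Nrp2, Ntn4, Plxnb3, Plxnd1 and Sema6d outside that rule were named after their values were seen. Positions and codons are from GENCODE vM1 on NCBIM37 (the assembly of mm9), where all 69 members overlapped the authors' loci. Of the members, 13 share exonic sequence with a gene on the other strand. Another gene on the same strand overlaps exons of 3 members, Ntn1, Nrp1 and Ntn3. P-values measure the spread between these libraries, which the study calls biological replicates, and intervals cover counting error only. Of the 23 listed co-receptors and cues, 22 were found in the tables and Draxin was not analysed here.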

Additional observations from a re-analysis of the deposited data

How the results depend on the processing

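Counts of members called higher and lower kept within 1.5 times of those given, except as follows. At T1 the lower count of 5 was 8 with DESeq2, 8 in one fit of all libraries and 15 with libraries numbered 1 and 2 alone. The share of all genes called lower was 16.8% in the main fit and 18.0%, 21.2% and 29.9% in these. At T2 the lower count of 6 was 10 with libraries 1 and 2 alone, where the share of all genes went from 21.8% to 27.4%. At T3 the higher count of 10 was 16 with DESeq2 and 19 in one fit, and the lower count of 1 was 4 with DESeq2, 3 with no filter and 5 in one fit. Of all genes, 3.31% were higher in the main fit, 7.94% with DESeq2 and 15.4% in one fit. The lower share was 1.41% in the main fit, 6.88% with DESeq2, 2.62% with no filter and 14.4% in one fit. From T1 to T2 the higher count of 1 was 4 with DESeq2, 0 in one fit, 2 with the replicate block and 0 with libraries 1 and 2 alone, and the lower count of 0 was 1 with DESeq2 and 1 with libraries 1 and 2 alone. The higher share of all genes in these 4 settings was 1.75%, 0.0232%, 1.51% and 0.748%. The lower share was 0.522% with DESeq2 and 0.146% with libraries 1 and 2 alone. From T2 to T3 the lower count of 1 was 5 with DESeq2 and 5 with no filter, where 2.52% and 1.65% of all genes were lower. For the 31 members of the named set, 92 values lost their call and 45 gained one over all alternatives in the 5 comparisons. Leaving out 1 library at a time gave ranges of 12 to 25 higher and 2 to 14 lower at T1, 17 to 25 and 5 to 12 at T2, 0 to 17 and 0 to 6 at T3, 0 to 1 and 0 to 1 from T1 to T2, and 0 to 1 and 0 to 8 from T2 to T3. Over all genes, leaving out 1 library gave 6.47% to 25.2% higher and 7.5% to 24.9% lower at T1. At T2 it gave 16.0% to 26.7% higher and 16.6% to 25.3% lower. The cause was not tested.

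The replicate block gave 17 higher and 6 lower at T1 (Efnb1, Unc5c and Plxnd1 lost, Nrp1 and Plxna2 gained), 19 and 5 at T2 (Ephb3 and Plxnb2 lost), and no change from T2 to T3. Of all genes, the block called 13.3% higher and 13.9% lower at T1, and 12.9% and 12.2% at T2. No paired analysis was possible for T3 against T0 because they share 1 number. Signs turned for values that were not called with all libraries, of which Sema6a at T1 was called lower without T0 replicate 3 and with libraries 1 and 2 alone (adjusted p = 0.0476 and 0.0291): Ntn1 at T1 (0.13 without T0 replicate 3, 0.075 with libraries 1 and 2 alone, range on leaving out 1 library -0.16 to 0.13) and T3 (0.037 without T0 replicate 3, 0.12 without T3 replicate 1, range -0.49 to 0.12), Sema5b at T1 (-0.0053, -0.059 and -0.047 without T0 replicate 1, T0 replicate 2 and T1 replicate 3, range -0.059 to 0.23), Sema6a at T1 (-0.23 and -0.038 without T0 replicate 3 and T1 replicate 2, -0.19 with libraries 1 and 2 alone, range -0.23 to 0.17), and Ephb3 at T3 (0.0077 with RLE, 0.16, 0.10 and 0.19 without T0 replicate 1, T0 replicate 2 and T3 replicate 4, range -0.23 to 0.19). The 2 T3 libraries limit what can be called there, and counts of at most 17 limit the Slits.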
